A study of Mus musculus with 12 samples.

Results

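The genes described here are 36 mouse genes of the NRF2 antioxidant response and of the pathways that feed it with NADPH. They were taken as the rows of the deposited count table whose Ensembl IDs map to the 36 symbols of a named list, and all 36 were found among 39017 IDs. NRF2, the protein of Nfe2l2, is a transcription factor that KEAP1 holds in the cytoplasm and marks for degradation. Oxidants and electrophiles modify KEAP1 and free NRF2, which enters the nucleus, pairs with a small MAF protein and binds antioxidant response elements, while BACH1 competes for the same sites. Its targets make glutathione, reduce thioredoxin and peroxiredoxins, conjugate toxic aldehydes and, through the pentose phosphate pathway, regenerate the NADPH on which all of these reductions draw. Microglia, the resident macrophages of the central nervous system, make reactive oxygen species themselves when activated, as they are in inflamed spinal cord.

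All 12 libraries hold microglial RNA from the spinal cord of C57BL/6 females in which experimental autoimmune encephalomyelitis (EAE) had been induced, an autoimmune disease of myelin that serves to model multiple sclerosis. The mice were Tmem119-Cre:RiboTag animals, in which cells that have expressed Cre from the microglial gene Tmem119 carry a tagged ribosomal protein by which their ribosome-bound RNA can be pulled from tissue. In 6 libraries the genotype was Kdm6a cKO (replicates 1 to 6), a conditional knockout of an X-linked histone demethylase gene, and in 6 it was WT (replicates 7 to 12). No group without EAE was included, the animals' age is not given, and whether each library is a different animal is not stated, so a p-value speaks of the spread among the libraries.

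The libraries held 19040115 to 26296071 counts, so that 3 counts corresponded to 0.109 to 0.157 CPM (counts scaled to a common library size), a floor that covers counting error only. Kdm6a itself read 1.59 to 4.50 CPM in cKO and 3.35 to 6.19 CPM in WT, a log2 fold change of -0.70 ± 0.25 (SE) that did not pass the test (edgeR adjusted p = 0.117), and cKO 2 lay within the WT range. The summed level of 10 microglial markers ran from 8930 to 18771 CPM in cKO and from 12158 to 13926 CPM in WT. Of these markers Siglech alone was called, at 133 to 449 CPM in cKO and 64.9 to 109 CPM in WT, without overlap. Its log2 fold change was 1.72 (edgeR adjusted p = 0.00119). Among the cKO libraries, cKO 1, 2 and 4 stood apart, with a first principal component of 55 central nervous system cell markers of 1.55, 2.28 and 0.76, against -0.88 to -0.29 in cKO 3, 5 and 6 and -0.73 to -0.18 in WT. The summed markers of neurons were 738, 907 and 582 CPM in cKO 1, 2 and 4, 281 to 383 CPM in the other cKO libraries and 251 to 373 CPM in WT. Border macrophage markers summed to 6.17 to 36.3 CPM in cKO and 41.4 to 82.6 CPM in WT, and the sums of the groups did not overlap. In WT most of that sum was Ms4a7, the 1 marker of the border macrophage list that was called. It read 1.92 to 31.4 CPM in cKO and 37.3 to 72.1 CPM in WT. Mrc1, Pf4 and Folr2 overlapped between the groups, and Cd163 and Lyve1 were at or near 0. Cbr2 and F13a1 were low and, like Cd163 and Lyve1, not tested. Cbr2 read 0.0377 to 0.235 CPM in cKO and 0.311 to 1.24 CPM in WT, without overlap, while F13a1 overlapped. The sums of B and plasma cell markers did not overlap either, at 335 to 671 CPM in cKO and 199.5 to 288 CPM in WT, nearly all of it Ighm. Ighm was called higher, as were Uchl1 of the neuronal and Notch3 of the mural cell list. Klrb1c of the T and NK cell list was called lower, with a log2 fold change of -3.05 (edgeR adjusted p = 0.000459). It read 0.0363 to 0.247 CPM in cKO and 0.679 to 2.23 CPM in WT, without overlap. Cd3e and Cd4, also tested, overlapped. None of the 125 markers found in the table was at 0 in all libraries. The part of these differences in the results below was not tested, except where a fit with the central nervous system marker component or with libraries omitted is given. That component holds no markers of border macrophages, monocytes, T and NK cells or B and plasma cells, and no fit adjusts for those. In RNA from pulled-down tissue, fewer cells of a type and less RNA per cell cannot be told apart.

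Most of the antioxidant genes showed no called difference between the groups. Of the 36 genes, all of which were abundant enough to test, 1 was higher and 2 were lower in cKO at a Benjamini-Hochberg adjusted p under 0.05 (edgeR quasi-likelihood test). That is 8.33% of them, where 5.87% of all 15015 tested genes were called, 2.44% higher and 3.43% lower. The lower genes were Osgin1 and Gsto1, and the higher gene was Gsta4. At an unadjusted p under 0.05 there were 8 of 36, where the share of all genes was 23.8%. Of all genes, 12.3% were called by DESeq2, 31.1% by limma-voom with sample weights, 6.15% with central nervous system markers as a covariate, 2.75% without cKO 1 and 2, 3.65% without cKO 1, 2 and 4, and 3.03% to 18.6% with 1 library omitted, and the members' calls in those settings are to be read against these shares. The median log2 fold change of the 36 was -0.05, with 16 above 0 and 20 below, and that of all genes was 0.03. In size, 27 of the 36 genes and 65.8% of all genes lay within 0.3 of 0 on the log2 scale. Of the 36 genes, 10 share exon sequence with another annotated gene, none of them among the 3 called. They are Keap1, Mafg, Sqstm1, Gclm, Gss, Prdx2, Prdx5, G6pdx, Tkt and Me1. For Mafg, Gclm and Tkt an overlapping gene lies on the same strand. No source used here names the strand setting of the counting. The shares above lie near those of all genes, and a p above the threshold does not show that a gene's level was the same.

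**Figure D1:**
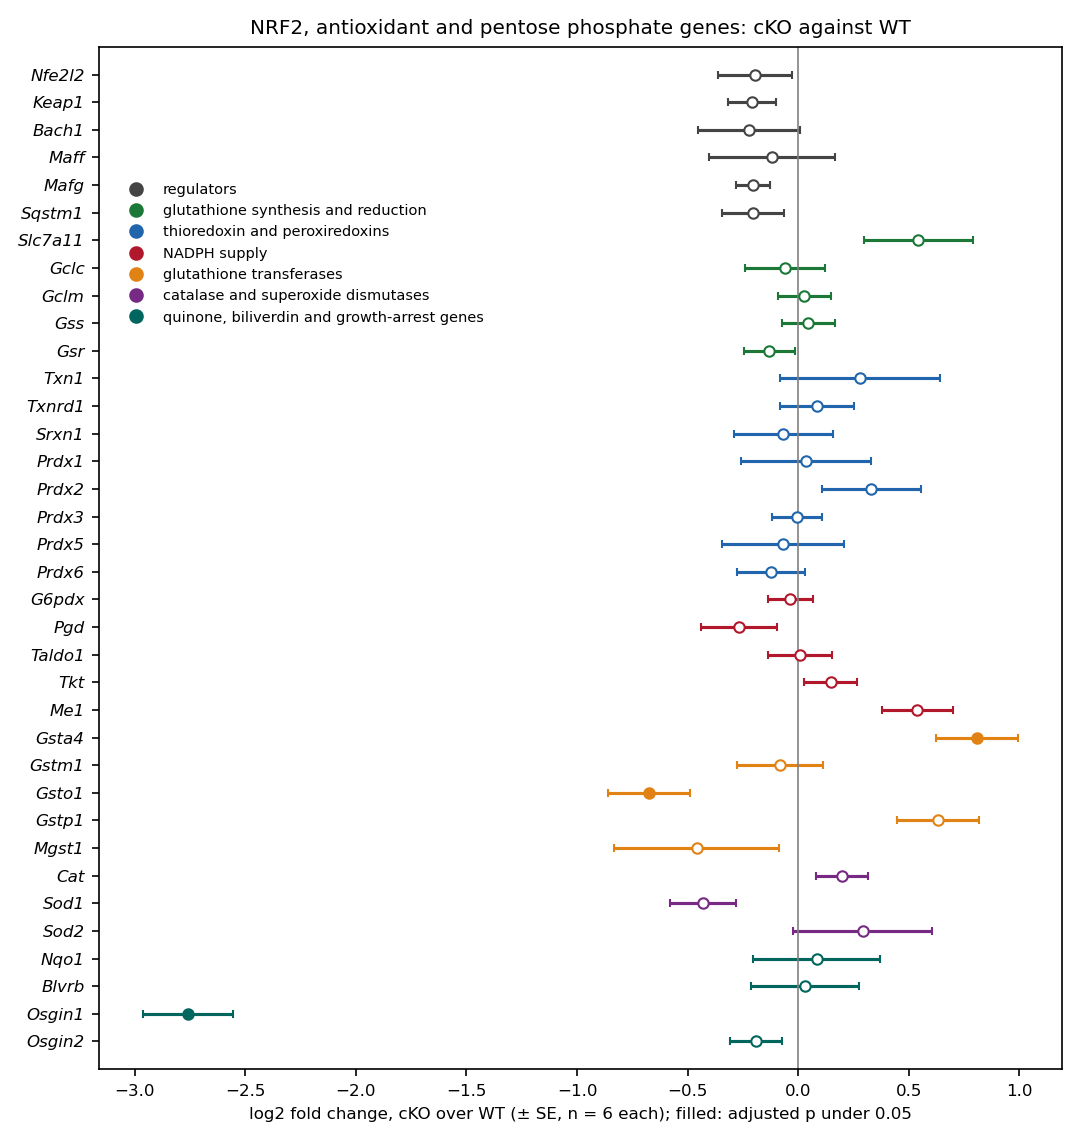
Log2 fold change of each of the 36 genes, cKO over WT, with bars of 1 SE from the edgeR fit of 6 libraries per group, ordered by role. Osgin1 lies at -2.76, far from every other gene, Gsto1 at -0.67 and Gsta4 at 0.81, and these 3 passed the adjusted threshold.

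The antioxidant response element to which NRF2 binds was looked for in the promoters of the genes. In RefSeq promoters of GRCm38.p6, from 250 bases before to 50 after the annotated start, 31 of the 36 genes had an entry. The core TGACNNNGC, searched on both strands, occurred in 12 of these 31 genes (38.7%), where 14.0% of all 27025 genes with an entry held it. The shorter TGACTCA, which is also the site of AP-1 factors and overlaps the core where GC follows, occurred in 5 of the 31 genes (16.1%), where 5.95% of all genes held it. Genes with several promoters have more sequence in which a match can occur, and all 27025 genes had 32851 promoters. Of the 12 genes with the core, Maff and Txnrd1 had 3 promoters, Pgd, Mgst1 and Me1 had 2, and the others had 1. The part of promoter number in these shares was not tested. A match is a description of the sequence and not of binding. The sequences below come from the regulators Nfe2l2, Maff and Mafg, from the glutathione synthesis gene Gclm, and from Prdx1 and Me1, in which both motifs coincide. Each is printed on the strand that reads the core, which is in capitals.
Nfe2l2 (chr2:75704885-75704913, minus strand): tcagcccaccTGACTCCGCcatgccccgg
Maff (chr15:79346499-79346527, plus strand): gggcgtctcaTGACTCTGCcactggaaag
Mafg (chr11:120633751-120633779, plus strand): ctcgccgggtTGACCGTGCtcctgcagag
Gclm (chr3:122245413-122245441, minus strand): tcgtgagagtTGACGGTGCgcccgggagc
Prdx1 (chr4:116685456-116685484, minus strand): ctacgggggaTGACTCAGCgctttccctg
Me1 (chr9:86695902-86695930, minus strand): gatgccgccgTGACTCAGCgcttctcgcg
The other genes with the core were G6pdx, Mgst1, Pgd, Sod1, Srxn1 and Txnrd1.

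Among the stress-response and quinone-handling genes, Osgin1 fell and the other members did not pass the test. Osgin1 encodes an oxidative stress-induced growth inhibitor, known in human cells as an NRF2 target. It read 1.03, 0.943, 2.18, 1.28, 1.43 and 1.09 CPM in cKO 1 to 6, and 7.70, 7.63, 10.97, 8.27, 9.47 and 9.89 CPM in WT 7 to 12. Every cKO library lay far below every WT library, in raw counts 22 to 46 against 146 to 213. The mean was 1.33 ± 0.455 CPM in cKO and 8.99 ± 1.34 CPM in WT (SD, n = 6 each), so that the cKO level was 14.8% of the WT level. The log2 fold change was -2.76 ± 0.20 (SE) with an edgeR adjusted p of 1.26e-05, and an exact two-sided permutation test gave p = 0.00216, the lowest value that groups of this size allow. The call held in all 20 alternative settings, with log2 fold changes of -2.95 to -2.50. Osgin1 was low in cKO 3, 5 and 6 as well as in cKO 1, 2 and 4, and without the latter 3 libraries the call held. The border macrophage markers Ms4a7 and Cbr2 were also lower in every cKO library than in every WT library, Cbr2 at no more than 1.24 CPM. Mrc1, Pf4, Folr2 and F13a1 overlapped between the groups. Klrb1c of the T and NK cell list was likewise lower in every cKO library, at no more than 2.23 CPM, while Cd3e and Cd4 overlapped. The part of border macrophages or of T and NK cells in the Osgin1 result was not tested.

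Osgin1 lies on the plus strand of mm10 chromosome 8 from 119434124 to 119446256, and no exon of another annotated gene overlaps it. The 250 bases upstream of its RefSeq start hold TGACTCA but not the core TGACNNNGC. That RefSeq start lies inside the annotated gene, and the bases before 119434124 were not searched. The stretch is shown because Osgin1 is the member with the largest difference between the groups, and capitals mark the motif, whose first base lies 97 bases before the start.
Osgin1 promoter (chr8:119436897-119437146, plus strand, 58.4% GC): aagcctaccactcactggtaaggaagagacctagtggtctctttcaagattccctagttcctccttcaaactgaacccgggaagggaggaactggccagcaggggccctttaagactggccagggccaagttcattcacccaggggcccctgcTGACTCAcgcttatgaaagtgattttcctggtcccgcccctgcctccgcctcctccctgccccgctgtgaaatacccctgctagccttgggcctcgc

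Its paralogue Osgin2 did not share the difference in size. Osgin2 read 7.19, 6.49, 5.98, 7.35, 7.88 and 6.47 CPM in cKO and 7.203, 6.95, 7.47, 8.22, 9.61 and 7.82 CPM in WT, with overlapping groups and a log2 fold change of -0.19 ± 0.12 (SE; edgeR adjusted p = 0.356). Nqo1, the quinone reductase most often read as an NRF2 target, was read at a low level in both groups. It held 10 to 34 counts per library, or 0.653 to 1.61 CPM in cKO and 0.475 to 1.35 CPM in WT, with overlapping groups. Its log2 fold change was 0.08 ± 0.29 (SE; edgeR adjusted p = 0.903). Blvrb, a biliverdin reductase that also reduces flavins, ranged from 41.6 to 141 CPM in cKO and from 62.9 to 92.5 CPM in WT, with a log2 fold change of 0.03 ± 0.24 (SE; edgeR adjusted p = 0.961).

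**Figure D2:**
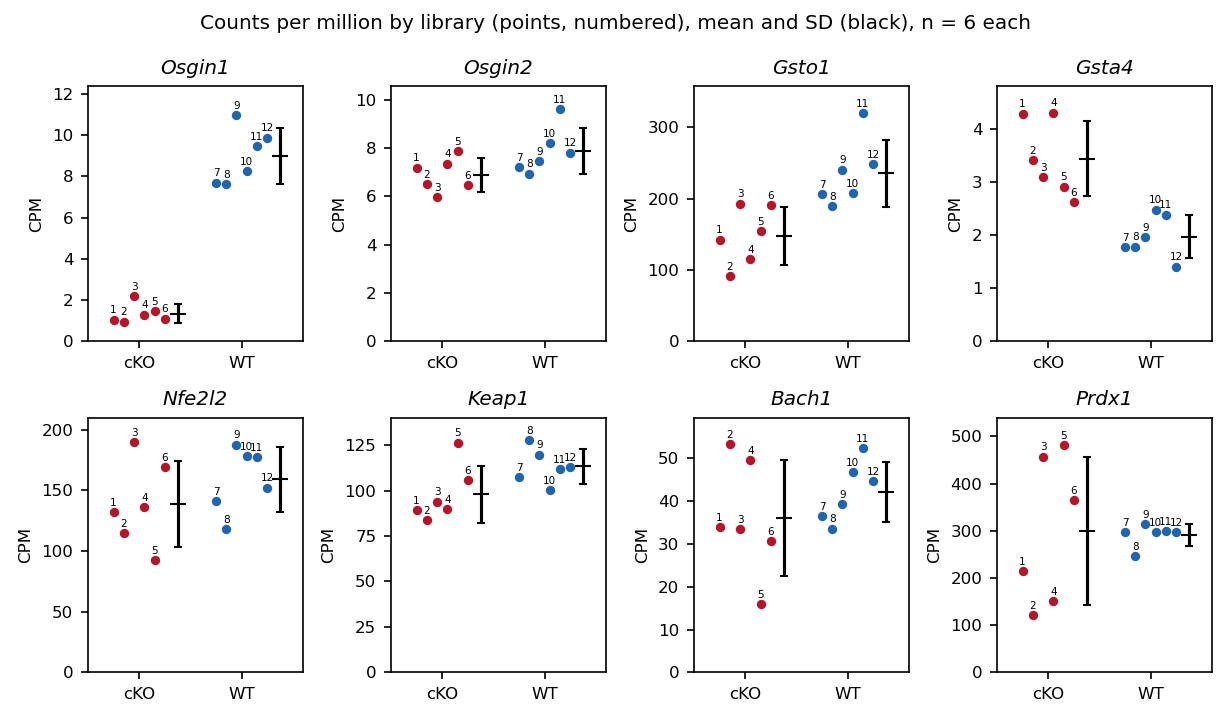
CPM of selected genes in each library, with 6 cKO and 6 WT points per gene, numbered by replicate, and the mean with its SD in black. Osgin1 shows no overlap between the groups, from 0.943 to 2.18 CPM in cKO and from 7.63 to 10.97 CPM in WT.

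The glutathione transferases, which join glutathione to electrophiles or use it to reduce other molecules, moved in both directions. Of the 5 members, Gsta4 rose, Gsto1 fell and Gstp1, Gstm1 and Mgst1 did not pass the test. Gsta4, whose enzyme conjugates the lipid aldehyde hydroxynonenal, read 4.28, 3.41, 3.08, 4.30, 2.90 and 2.62 CPM in cKO and 1.77, 1.78, 1.96, 2.47, 2.38 and 1.40 CPM in WT. All cKO libraries lay above all WT libraries, though the lowest cKO and the highest WT value were close. In counts the ranges were 53 to 114 in cKO and 27 to 52 in WT. The mean rose from 1.96 ± 0.406 to 3.43 ± 0.711 CPM (SD, n = 6 each), and the log2 fold change was 0.81 ± 0.19 (SE; edgeR adjusted p = 0.0228), and the exact two-sided permutation p was 0.00216. The direction held in every setting in which Gsta4 was tested. The call did not hold without any 1 of cKO 1, cKO 4, WT 7, WT 8, WT 9 or WT 12 (adjusted p 0.053 to 0.0589), nor without cKO 1 and 2 (log2 fold change 0.72, adjusted p = 0.101 by edgeR). It was also lost without cKO 1, 2 and 4 (log2 fold change 0.57, edgeR adjusted p = 0.182) and with the marker component as a covariate (0.66 ± 0.19, SE; edgeR adjusted p = 0.0525). It held in 10 of the 19 alternatives that tested Gsta4, with adjusted p from 0.00108 to 0.182 over them. Gsta4 lies on mm10 chromosome 9 from 78182774 to 78209349.

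Gsto1, an omega-class transferase that reduces dehydroascorbate and removes glutathione from proteins, was the other called transferase. It read 142, 90.7, 193, 115, 154 and 191 CPM in cKO and 206, 189, 240.5, 208, 320.1 and 249 CPM in WT. The lowest values were those of cKO 2 and cKO 4, while cKO 3 and cKO 6 lay just above the lowest WT library. Its cKO mean of 148 ± 40.7 CPM was 62.7% of the WT mean of 235 ± 47.2 CPM (SD, n = 6 each). The log2 fold change was -0.67 ± 0.19 (SE) and the edgeR adjusted p 0.0495, at the edge of the threshold, with an exact two-sided permutation p of 0.00649. When 1 library was omitted in turn the call was kept only without cKO 3, cKO 5 or cKO 6, and it was lost without any of the other 9, with log2 fold changes of -0.79 to -0.57. Without cKO 1 and 2 the log2 fold change was -0.53 (edgeR adjusted p = 0.159), and without cKO 1, 2 and 4 it was -0.38 (edgeR adjusted p = 0.233). With the central nervous system marker component as a covariate it was -0.48 ± 0.16 (SE; edgeR adjusted p = 0.0905). RLE scaling alone also ended the call (log2 fold change -0.66, edgeR adjusted p = 0.0519). Over all alternatives its adjusted p ran from 0.00339 to 0.233. Gsto1 lies on mm10 chromosome 19 from 47854970 to 47864790, and its promoter window holds neither motif.

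Gstp1, a pi-class transferase, read 6.96, 4.97, 5.08, 5.47, 8.71 and 7.61 CPM in cKO and 5.84, 4.70, 3.71, 3.61, 3.43 and 3.68 CPM in WT. The groups overlap through WT 7, and cKO 1, 5 and 6 lay above every WT library. The log2 fold change was 0.63 ± 0.19 (SE) and did not pass (edgeR adjusted p = 0.0613; exact two-sided permutation p = 0.0130). It passed in 5 of 20 alternatives, over which the adjusted p ran from 0.012 to 0.141, among them the fit with the marker component (log2 fold change 0.74, edgeR adjusted p = 0.0309). Gstp2, a closely related copy, was too low to test, and how reads shared by such copies were counted is not given in the sources used here. Mgst1, a membrane-bound transferase, ranged from 8.15 to 41.2 CPM in cKO and from 18.4 to 54.2 CPM in WT, with a log2 fold change of -0.46 ± 0.37 (SE; edgeR adjusted p = 0.509). Gstm1 had a log2 fold change of -0.08 ± 0.19 (SE; edgeR adjusted p = 0.856).

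The 6 regulators among the 36 genes were all read at slightly lower levels in cKO, and none passed the test. Their 6 log2 fold changes lay between -0.22 and -0.12, and that of Maff was 0.21 with the marker component as covariate and 0.41 without cKO 1, 2 and 4. Of all 15015 tested genes, 6815 had a log2 fold change below 0. Among 11 further regulators, tested as part of the other pathway genes read for context, 9 lay above 0. At an unadjusted p under 0.05 there was 1 of the 6, Mafg, and limma-voom with sample weights called Keap1 and Mafg, DESeq2 none. Nfe2l2, which encodes NRF2, read 132, 115, 190, 136, 92.5 and 169 CPM in cKO and 141, 118, 188, 179, 177 and 152 CPM in WT. The groups overlapped, with cKO 2 and 5 below every WT library and cKO 3 above them, and had means of 139 ± 35.5 and 159 ± 26.8 CPM (SD, n = 6 each), and the log2 fold change was -0.19 ± 0.17 (SE; edgeR adjusted p = 0.538). Keap1 read 89.2, 83.6, 93.9, 89.6, 126 and 106 CPM in cKO and 107, 127, 120, 100, 112 and 113 CPM in WT. In 4 of the 6 cKO libraries Keap1 lay below every WT library, and its log2 fold change was -0.21 ± 0.11 (SE; edgeR adjusted p = 0.260). Bach1 read 33.9, 53.2, 33.4, 49.4, 15.9 and 30.6 CPM in cKO and 36.5, 33.5, 39.3, 46.8, 52.3 and 44.6 CPM in WT. It was the highest in cKO 2 and the lowest in cKO 5, and the log2 fold change was -0.22 ± 0.23 (SE; edgeR adjusted p = 0.618).

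Mafg, a small MAF partner of NRF2, was the regulator of smallest p. It read 127, 131, 119, 124, 141 and 122 CPM in cKO and 142, 165, 145, 146, 143 and 137 CPM in WT, and only cKO 5 reached the WT range. The log2 fold change was -0.20 ± 0.08 (SE; edgeR adjusted p = 0.125), and the exact two-sided permutation p was 0.00433, unadjusted. Maff, the inducible small MAF, spread far more among the cKO libraries, from 12.6 to 50.9 CPM, than among the WT libraries, from 30.8 to 35.6 CPM. Its log2 fold change was -0.12 ± 0.29 (SE; edgeR adjusted p = 0.862). Sqstm1, an autophagy receptor that binds KEAP1, ranged from 382 to 721 CPM in cKO and from 547 to 644 CPM in WT, with a log2 fold change of -0.20 ± 0.14 (SE; edgeR adjusted p = 0.428).

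The 5 genes of cystine import and of glutathione synthesis and recycling did not pass the test in either direction with edgeR, DESeq2 or limma-voom. Slc7a11, the cystine importer, had the smallest p and was the 1 gene of these at an unadjusted p under 0.05. It read 5.17, 5.44, 7.97, 2.68, 7.08 and 7.71 CPM in cKO and 2.92, 3.39, 5.25, 5.13, 4.38 and 3.62 CPM in WT. In cKO 2, 3, 5 and 6 it lay above every WT library and in cKO 4 it was the lowest of all 12. The log2 fold change was 0.54 ± 0.25 (SE; edgeR adjusted p = 0.197; exact two-sided permutation p = 0.0671). Gclc and Gclm, the catalytic and modifier subunits of the rate-limiting enzyme, had log2 fold changes of -0.06 ± 0.18 and 0.03 ± 0.12 (SE; edgeR adjusted p = 0.890 and 0.922). Gss, glutathione synthetase, had one of 0.05 ± 0.12, and Gsr, which recycles oxidised glutathione with NADPH, one of -0.13 ± 0.12 (SE; edgeR adjusted p = 0.868 and 0.546).

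The thioredoxin and peroxiredoxin genes, whose products clear peroxides with electrons from NADPH, varied most among the cKO libraries, and none of the 8 passed the test. None was at an unadjusted p under 0.05 in edgeR or called by DESeq2, and limma-voom called Prdx6. Prdx2, the member of smallest p, read 90.6, 74.5, 122, 95.6, 228 and 155 CPM in cKO and 96.6, 105, 106, 84.4, 107 and 109 CPM in WT. It was high in cKO 5, 6 and 3 and low in cKO 2, and its mean was 128 ± 56.5 against 101 ± 9.38 CPM (SD, n = 6 each). The log2 fold change was 0.33 ± 0.23 (SE; edgeR adjusted p = 0.417; exact two-sided permutation p = 0.346). Prdx2 passed with the marker component as covariate (log2 fold change 0.61, edgeR adjusted p = 0.00851) and without cKO 1, 2 and 4. Among all alternatives its adjusted p lay between 0.00851 and 0.917. Txn1 read 59.9, 36.1, 93.7, 63.9, 250.4 and 113 CPM in cKO and 67.1 to 106 CPM in WT, with a log2 fold change of 0.28 ± 0.36 (SE; edgeR adjusted p = 0.709). Prdx5 ranged from 214 to 795 CPM in cKO, with cKO 5 the highest, and from 319 to 554 CPM in WT.

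A split within the cKO group ran through several of these genes. In Prdx1, cKO 1, 2 and 4 read 215, 122 and 152 CPM, below the 246 to 313 CPM of the WT libraries, while cKO 3, 5 and 6 read 457, 482 and 365 CPM, above them. Txnrd1, thioredoxin reductase, read 85.0, 70.5 and 82.7 CPM in cKO 1, 2 and 4, below the 86.7 to 117 CPM of WT, and 130, 138 and 131 CPM in the other 3. Maff had the same order, with 25.1, 12.6 and 15.5 against 50.9, 36.9 and 44.4 CPM. The means of the groups therefore hardly differed, with log2 fold changes of 0.03 ± 0.30 for Prdx1 and 0.08 ± 0.17 for Txnrd1 (SE; edgeR adjusted p = 0.963 and 0.821). These 3 genes, chosen after their values had been seen, are those of the 36 with 3 cKO libraries below and 3 above all WT libraries, which is 8.33% of the list and 0.493% of all genes (74 of 15015). Over the whole list, cKO 2 was the lowest of the 12 libraries for 17 genes (47.2%, and 20.9% of all genes) and cKO 5 the highest for 14 (38.9%, and 22.9% of all genes).

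The median of the 36 genes, as log2 CPM relative to the WT mean, was -0.20, -0.43 and -0.27 in cKO 1, 2 and 4 and 0.19, 0.22 and 0.05 in cKO 3, 5 and 6. For the thioredoxin and peroxiredoxin genes it was -0.25, -0.60 and -0.46 in the first 3 and 0.22, 0.60 and 0.29 in the others. The same libraries differed in gene length: the median of 3707 genes with exons of at most 2409 bases, minus that of 3707 genes of at least 6535 bases, was -0.31, -0.65 and -0.33 in cKO 1, 2 and 4, and -0.13, 0.35 and 0.16 in cKO 3, 5 and 6, against -0.21 to 0.10 in WT. They also differed in the central nervous system markers given above and in the summed monocyte list, which ran from 156 to 449 CPM in cKO 1, 2 and 4, from 1178 to 1593 CPM in cKO 3, 5 and 6 and from 229 to 695 CPM in WT, and which was nearly all Fn1, a gene of other cells too. The monocyte markers Ly6c2 and Ccr2 were at most 1.63 CPM in any library. The part of length, of these cell markers and of depth in the split was not tested. Without cKO 1, 2 and 4, with 3 cKO libraries left, Prdx1 (log2 fold change 0.59, adjusted p = 0.0129), Txnrd1 (0.43, 0.0394), Prdx2 (0.75, 0.0227) and Slc7a11 (0.90, 0.0194) passed by edgeR as higher. In that setting 3.65% of all genes were called in either direction. All of these members read above every WT library in cKO 3, 5 and 6, for which Prdx1 and Txnrd1 had been picked. Leaving only those libraries favoured a higher call in advance, so these calls give the split no support.

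**Figure D3:**
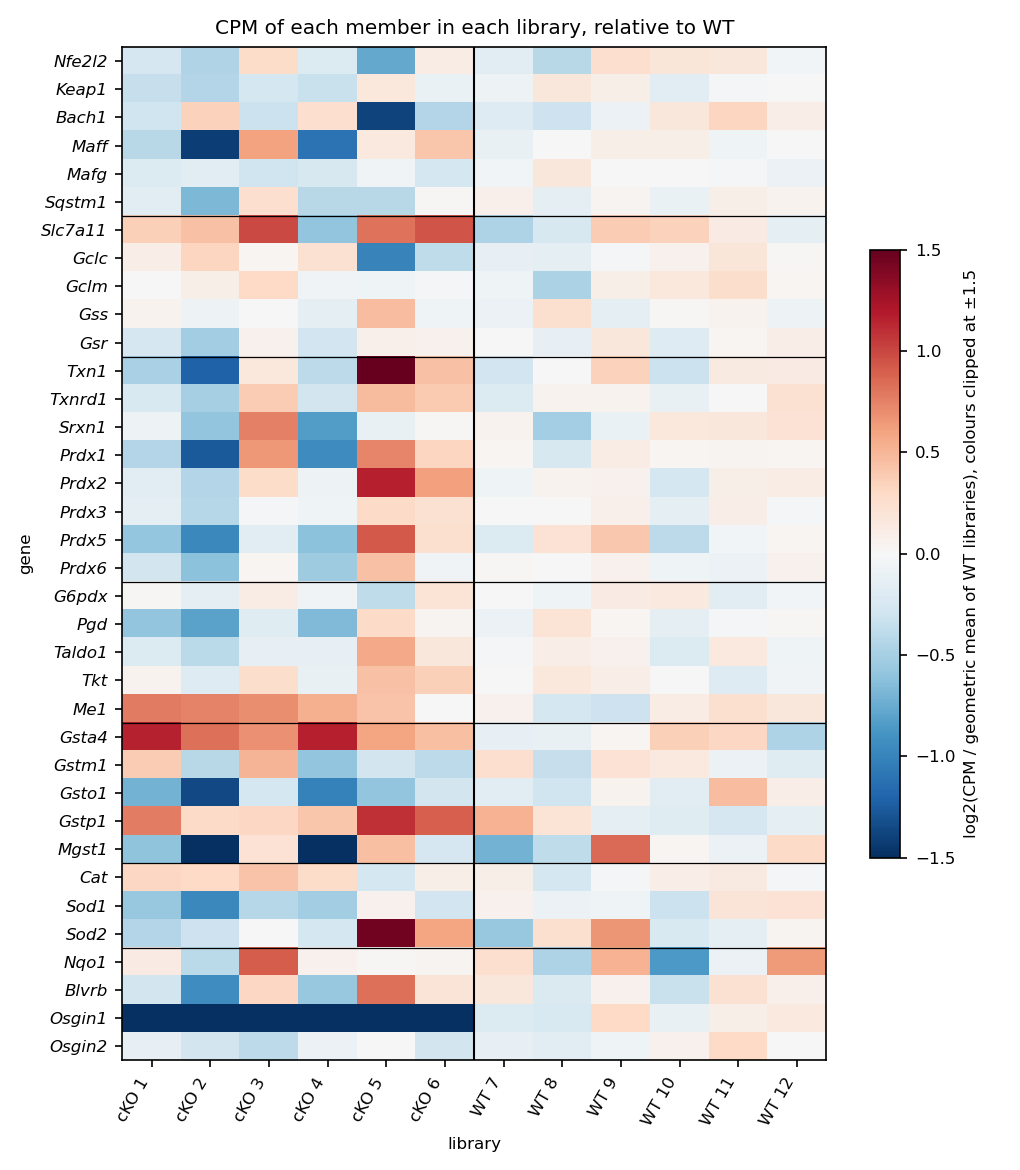
Heat map of log2 CPM relative to the WT mean for the 36 genes (rows, by role) in the 12 libraries (columns), where 0 is the mean of the log2 WT values and colours stop at -1.5 and 1.5. The medians of columns cKO 1, 2 and 4 lie at -0.20, -0.43 and -0.27 and those of cKO 3, 5 and 6 at 0.19, 0.22 and 0.05, while the Osgin1 row is low in all 6 cKO columns.

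The spread itself was larger in cKO for 31 of the 36 genes (86.1%), and for 81.1% of all genes. The median SD of log2 CPM was 0.39 in cKO and 0.19 in WT for the 36, against 0.35 and 0.20 for all genes, so the wider cKO spread was not particular to the 36 genes. Maff had SDs of 0.82 in cKO and 0.08 in WT.

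None of the 5 genes of the pentose phosphate pathway and malic enzyme passed the edgeR test, with Me1 alone at an unadjusted p under 0.05. Me1 was also called by DESeq2, and Me1 and Pgd by limma-voom. G6pdx, the first and rate-limiting enzyme of the pentose phosphate pathway, had a log2 fold change of -0.04 ± 0.10 (SE; edgeR adjusted p = 0.881), with 81.5 to 122 CPM in cKO and 94.4 to 117 CPM in WT. Pgd, the next dehydrogenase of the oxidative branch, ranged from 209 to 442 CPM in cKO and from 332 to 418 CPM in WT, with -0.27 ± 0.17 (SE; edgeR adjusted p = 0.385). For Taldo1 and Tkt of the non-oxidative branch the values were 0.01 ± 0.15 and 0.15 ± 0.12 (SE; edgeR adjusted p = 0.981 and 0.513). Me1, the cytosolic malic enzyme, was the gene of this group nearest the threshold. It read 5.83, 5.70, 5.505, 4.90, 4.57 and 3.41 CPM in cKO and 3.54, 2.82, 2.73, 3.66, 3.998 and 3.83 CPM in WT, and only cKO 6 lay within the WT range. The mean was 4.99 ± 0.911 against 3.43 ± 0.531 CPM (SD, n = 6 each), and the log2 fold change was 0.54 ± 0.16 (SE; edgeR adjusted p = 0.0651; exact two-sided permutation p = 0.0108). It passed in 4 of the 19 alternatives that tested it, over which the adjusted p ran from 0.00709 to 0.308.

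Of the enzymes that remove superoxide and hydrogen peroxide, none of the 3 passed in edgeR or DESeq2, while limma-voom called Cat and Sod1. Sod1 alone was at an unadjusted p under 0.05. Sod1, the cytosolic superoxide dismutase, read 63.0, 47.7, 69.3, 64.8, 97.4 and 76.2 CPM in cKO and 97.7, 87.8, 89.0, 74.4, 107 and 108 CPM in WT. The cKO libraries 1 to 4 lay below all WT libraries while cKO 5 and 6 lay among them. The mean was 69.7 ± 16.5 against 94.0 ± 12.9 CPM (SD, n = 6 each), and the log2 fold change was -0.43 ± 0.15 (SE; edgeR adjusted p = 0.103; exact two-sided permutation p = 0.0216). Sod2, the mitochondrial enzyme, ranged from 67.2 to 248 CPM in cKO and from 61.5 to 144 CPM in WT (log2 fold change 0.29 ± 0.31, SE; edgeR adjusted p = 0.639). Catalase, Cat, had a log2 fold change of 0.20 ± 0.12 (SE; edgeR adjusted p = 0.329).

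Levels can be compared between genes only per length, here as CPM per kb of union exon length, which counts every annotated isoform. In WT, Prdx5 stood highest at 199 ± 39.5 CPM per kb, followed by Sqstm1 at 181 ± 12.3, Gsto1 at 116 ± 23.3 and Taldo1 at 113 ± 9.86 (SD, n = 6). The ranges of the first pair, 149 to 259 and 163 to 192, overlapped, as did those of the next pair, 93.5 to 158 and 97.8 to 125. Prdx5 and Sqstm1 are among the genes that share exon sequence with another annotated gene. Nfe2l2 lay at 41.9 ± 7.06 CPM per kb. Osgin1, the gene of largest difference, ranked 29th of 36 at 3.36 ± 0.502 CPM per kb. Nqo1 at 0.593 and Slc7a11 at 0.296 CPM per kb were the lowest, and both are often read as NRF2 targets. Slc7a11 has the longest union exon length of the 36, 13922 bases, on which its rank depends, and its WT mean was 4.12 CPM.

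**Figure D4:**
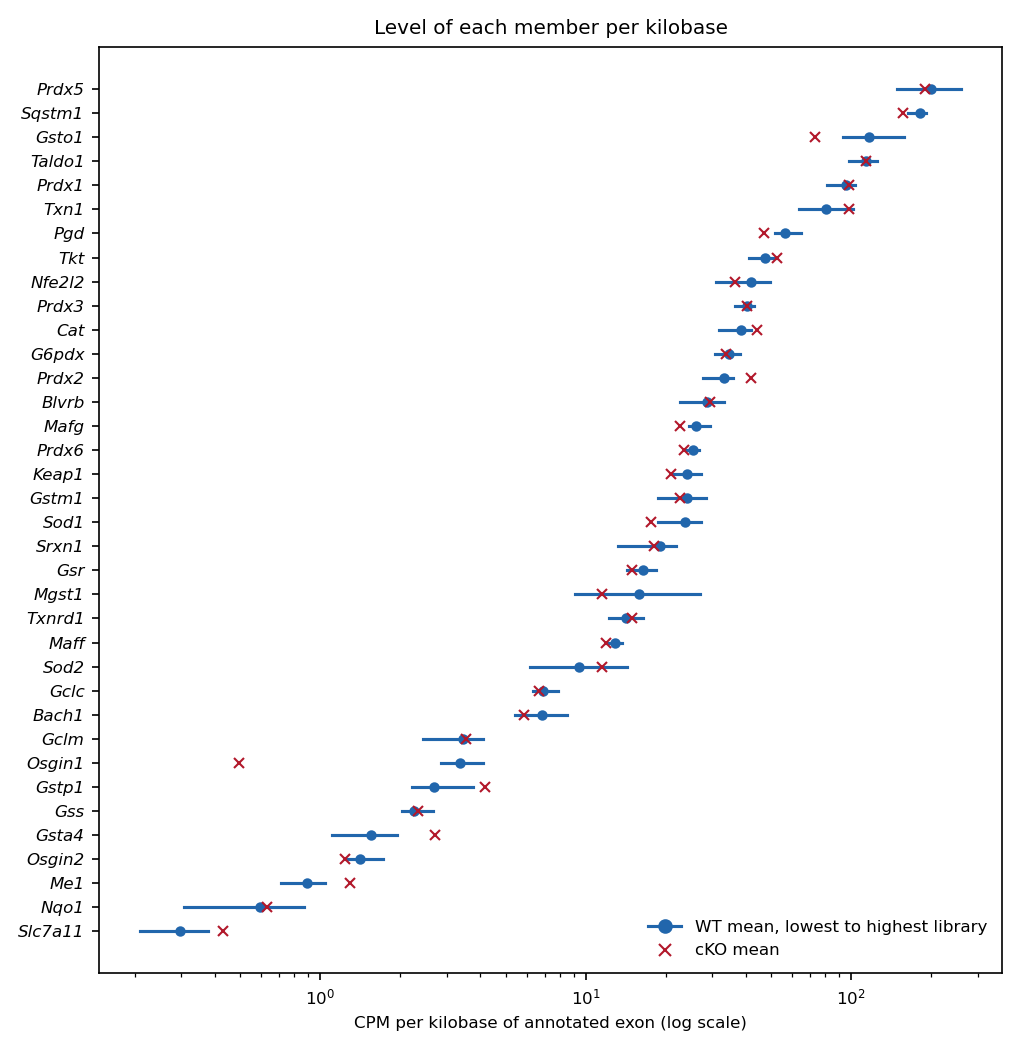
CPM per kb of exon of the 36 genes on a log axis, ordered by the WT mean. Circles are WT means with lines from the lowest to the highest WT library, and crosses are cKO means (n = 6 each). The genes run from Prdx5 at 199 CPM per kb to Slc7a11 at 0.296 CPM per kb.

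Other genes of glutathione, thioredoxin, NADPH, haem and conjugation metabolism and of NRF2 regulation, 105 in all, were read for context, of which 94 could be tested. Of these, 2 were higher and 5 lower in cKO, 7.45% in all, beside 5.87% of all genes (edgeR). Idh2, the mitochondrial NADP-dependent isocitrate dehydrogenase, rose. It ranged from 85.0 to 100.1 CPM in cKO (median 94.7) and from 52.3 to 68.8 CPM in WT (median 61.6), a log2 fold change of 0.62 ± 0.08 (SE; edgeR adjusted p = 0.000808). Sesn3, a sestrin of the stress response, ranged from 2.13 to 2.99 CPM in cKO and from 1.25 to 1.85 CPM in WT, with a log2 fold change of 0.82 ± 0.16 (SE; edgeR adjusted p = 0.00856).

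Among the genes that fell, Ggt5, a gamma-glutamyl transferase that cleaves glutathione outside the cell, read 2.70 to 7.39 CPM in cKO and 12.3 to 17.0 CPM in WT, a log2 fold change of -1.498 ± 0.21 (SE; edgeR adjusted p = 0.00100). H6pd, the hexose phosphate dehydrogenase of the endoplasmic reticulum, read 30.0 to 46.1 CPM against 53.3 to 72.1 CPM, a log2 fold change of -0.79 ± 0.12 (SE; edgeR adjusted p = 0.00159). Cyb5r1, a cytochrome b5 reductase, read 25.03 to 46.6 against 53.5 to 78.2 CPM, a log2 fold change of -0.97 ± 0.15 (SE; edgeR adjusted p = 0.00189). Gstt3, a theta-class transferase, and Abcc4, an exporter of conjugates, had log2 fold changes of -0.59 ± 0.13 and -0.53 ± 0.13 (SE; edgeR adjusted p = 0.0163 and 0.0259). The call of Abcc4 held in 13 of 20 alternatives and was lost without cKO 4, WT 9, WT 10, WT 11 or WT 12, without cKO 1 and 2 and without cKO 1, 2 and 4 (adjusted p 0.0511 to 0.0833). That of Sesn3 was lost without cKO 1, 2 and 4 (log2 fold change 0.78, edgeR adjusted p = 0.064). In each of these 7 genes the cKO and WT ranges were separate, but the genes had been selected by the test. Of the 94 tested genes of the wider list, 8 had separate ranges, beside 4.13% of all genes. The one not called was Abcc3, at 34.6 to 92.333 CPM in cKO and 92.342 to 118 CPM in WT (edgeR adjusted p = 0.102). Hmox1, haem oxygenase and a leading NRF2 and BACH1 target, was not called and was ordered like Prdx1 among the cKO libraries, although cKO 3 lay level with the highest WT library. It read 243, 201 and 226 CPM in cKO 1, 2 and 4, below the 265 to 426 CPM of WT, and 426, 918 and 545 CPM in cKO 3, 5 and 6, and its log2 fold change was 0.23 ± 0.33 (SE; edgeR adjusted p = 0.735).

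**Figure D5:**
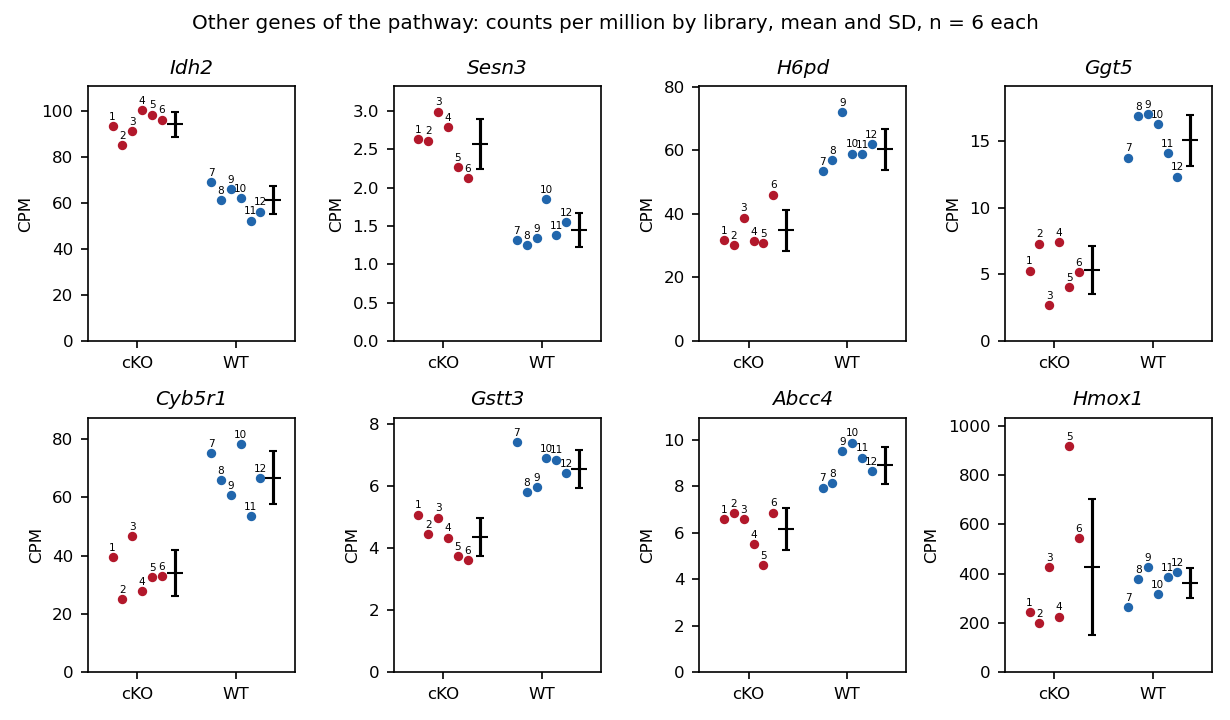
CPM in each library of the 7 called genes of the wider list and Hmox1, with 6 cKO and 6 WT points per gene, numbered by replicate, and the mean with its SD in black. Idh2 and Sesn3 lie higher in cKO, Ggt5, H6pd, Cyb5r1, Gstt3 and Abcc4 lower, and Hmox1 spreads from 201 to 918 CPM among the cKO libraries.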

How the data were processed

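The measurements are raw counts of reads per gene, deposited by the authors as whole numbers for 39017 Ensembl IDs and 12 libraries. Per the labels' protocols, a Direct-zol kit was used for the RNA and a KAPA stranded kit with mRNA enrichment for the libraries. Per the submitters' processing notes, bcl2fastq 2.17, FastQC and Trimmomatic were used with the build mm10. No aligner, counter, strand setting or annotation is named there, and reads shared by overlapping or near-identical genes are uncertain. Symbols, coordinates and exon lengths came from GENCODE for mm10 (37607 IDs matched) and promoters from RefSeq.

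Genes passing filterByExpr (15015) were scaled by TMM and tested by robust quasi-likelihood in edgeR 4.0.16 (R 4.3.3), cKO over WT, with Benjamini-Hochberg adjustment over all of them. The SE was taken as the absolute log2 fold change over √F, and CPM uses TMM-scaled library sizes. The biological coefficient of variation was 0.249. The fit was tested on simulated data. Single values were also compared by an exact permutation test over all assignments of 6 against 6, unadjusted. Alternatives were RLE scaling, DESeq2 1.42.0, limma-voom (limma 3.58.1) with sample weights, no filter, a mean of at least 5 CPM, the first principal component of central nervous system markers as a covariate, and the omission of cKO 1 and 2, of cKO 1, 2 and 4, and of each library in turn.

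Members and gene lists were chosen with earlier results of these data known. Given in full are Nfe2l2, Keap1, Bach1, the called members and the member of smallest p in each role. Of the 105 other pathway genes, values are given for the called ones, for Hmox1 and, because of its separate ranges, for Abcc3. Values given by library for other members were chosen after they had been seen.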

Additional observations from a re-analysis of the deposited data

Results flagged for a closer look

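In each group of 6 libraries, the 36 genes and 8 others of the pathway were searched for 1 library set far from the rest, by the ratio of its gap to the group's range (Dixon's criterion). This gave 5 of 88 groups, and chance alone gives about 1 in 20. Txn1, the cytosolic thioredoxin, read 250.4 CPM in cKO 5 and 36.1 to 113 CPM in the other cKO libraries. Gss, glutathione synthetase, read 18.3 CPM in cKO 5 and 11.99 to 13.8 CPM in the others. Nqo1, the quinone reductase, read 1.61 CPM in cKO 3 and 0.653 to 0.940 CPM in the others. In the WT group, WT 8 stood apart for Mafg, at 165 CPM where the others read 137 to 146 CPM, and for Prdx1, at 246 CPM where the others read 296 to 313 CPM. None of these 5 genes was called between the groups by edgeR.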

How the results depend on the processing

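No paired analysis was possible because the groups share no replicate numbers. Members called higher (main 1) numbered 2 with the marker component, 3 with DESeq2, 4 with limma-voom, 0 without cKO 1 and 2, 4 without cKO 1, 2 and 4, and 0 to 3 when 1 library was omitted. Members called lower (main 2) numbered 1 with the marker component, 1 with RLE scaling, 8 with limma-voom, 1 without cKO 1 and 2, 1 without cKO 1, 2 and 4, and 1 to 5 with 1 library omitted. Of the other pathway genes (main 2 higher, 5 lower) 4 and 8 were called with the marker component, 4 and 8 with DESeq2, 10 and 20 with limma-voom, and 1 higher at a mean of at least 5 CPM, with 2 to 4 and 4 to 12 on omitting 1 library. All genes called (main 882) numbered 1843 with DESeq2, 4663 with limma-voom, 416 without cKO 1 and 2, 557 without cKO 1, 2 and 4, and 460 (without WT 9) to 2818 (without cKO 5) with 1 omitted. Osgin1 alone of the 36 was called in all 20 alternatives. Nqo1 had the lowest counts, 10 to 34 per library.

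Of the 44 genes followed, 22 kept their sign in every alternative, and the log2 fold changes that changed sign were all of genes not called in the main test. With the marker component they were Gsr 0.012, Maff 0.21, Prdx3 0.14, Prdx5 0.26, Prdx6 0.064 and Srxn1 0.089. Prdx3 also read 0.0032 with DESeq2, 0.0033 with RLE and 0.018 at a mean of at least 5 CPM, and Taldo1 -0.011 with no filter. With limma-voom they were Blvrb -0.27, G6pdx 0.003, Gclc 0.067, Gstm1 0.019, Hmox1 -0.38, Prdx1 -0.37, Prdx2 -0.022, Sod2 -0.20, Taldo1 -0.13, Txn1 -0.34 and Txnrd1 -0.14. Without cKO 1 and 2 they were Maff 0.14, Prdx3 0.11, Prdx5 0.19, Prdx6 0.013 and Srxn1 0.046. Without cKO 1, 2 and 4 they were G6pdx 0.0075, Gsr 0.081, Gstm1 0.0049, Maff 0.41, Mgst1 0.11, Pgd 0.078, Prdx3 0.19, Prdx5 0.41, Prdx6 0.18 and Srxn1 0.27. Omitting 1 library gave ranges across 0 for Maff (-0.32 to 0.045), Gclc (-0.15 to 0.073), Gclm (-0.054 to 0.081), Gss (-0.0545 to 0.097), Txn1 (-0.21 to 0.46), Txnrd1 (-0.0063 to 0.18), Srxn1 (-0.30 to 0.0496), Prdx1 (-0.16 to 0.20), Prdx3 (-0.0775 to 0.066), Prdx5 (-0.38 to 0.061), G6pdx (-0.11 to 0.024), Taldo1 (-0.13 to 0.0803), Gstm1 (-0.23 to 0.0038), Sod2 (-0.087 to 0.45), Nqo1 (-0.11 to 0.22), Blvrb (-0.20 to 0.17) and Hmox1 (-0.15 to 0.38). The cause of these changes was not tested.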
